A study of Mus musculus with 6 samples.

Results

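The genes described here encode the folding machinery of the endoplasmic reticulum (ER) and the stress pathway that controls it, in cold-exposed mouse fat with and without the transcription factor Foxp4. They were taken by gene symbol from a named set of 33 genes, and all 33 were found among the 21900 distinct symbols of the deposited expression table. The set holds 15 chaperones and folding enzymes, 8 genes of protein translocation and ER-associated degradation (ERAD), 4 genes for stress sensors and the transcription factor Xbp1, and 6 genes of the Atf4-Ddit3 stress response. RNA came from the inguinal white fat, a subcutaneous depot near the hind leg, of C57BL/6 mice that were 2 months old. All mice had been moved from 22 °C to 4 °C for 7 days. The 3 knockout libraries (genotype Foxp4AdipoQdelta/delta) lack Foxp4 in fat cells: by the genotype label and the naming of the deposited table, the deletion used an AdipoQ Cre, a driver that acts in adipocytes. The 3 control libraries (genotype Foxp4fl/fl) carry the floxed gene, and the labels name no Cre for them, so Cre and the loss of Foxp4 cannot be told apart. The labels give neither the sex of the mice nor whether a library is 1 mouse or a pool, so each p-value reflects the spread among these libraries, which may be technical.

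Proteins that enter the ER are folded there by chaperones such as BiP (Hspa5) and by disulfide isomerases, and those that fail to fold are returned to the cytosol and degraded by ERAD. Unfolded protein activates the membrane sensors IRE1 (Ern1), PERK (Eif2ak3) and ATF6, a reaction called the unfolded protein response. IRE1 splices Xbp1 mRNA into its active form. XBP1 and ATF6 then induce chaperone and ERAD genes, whereas PERK phosphorylates eIF2 alpha, which favours translation of Atf4, whose targets include Ddit3 and genes of amino acid supply. Fat cells secrete large amounts of disulfide-bonded proteins such as adiponectin, whose assembly takes place in the ER. Gene-level RNA values do not show Xbp1 splicing, cleavage of ATF6 or the translation of Atf4.

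Values are FPKM, fragments per exon length and per library depth. Recovered reads on annotated genes numbered 13138313 to 14977103 in knockout libraries and 13950272 to 15964752 in control libraries. Foxp4 stood at 1.92, 1.71 and 1.64 FPKM in knockouts and at 5.76, 4.01 and 4.62 FPKM in controls, without overlap. The defining markers of adipocytes were abundant in all 6 libraries, with Adipoq at 823 to 935 FPKM in knockouts and 1150 to 1286 FPKM in controls. In whole tissue, fewer cells of a type and less RNA per cell cannot be told apart. Control replicate 3 stood apart: its 12 fibroblast and progenitor markers summed to 1240 FPKM, against 466 to 619 FPKM in knockouts and 491 and 593 FPKM in the other controls. Its 14 immediate early genes, which can be induced during tissue handling, summed to 199 FPKM, against 93.6 to 114 FPKM in knockouts and 89.3 and 119 FPKM in the other controls. The 12 skeletal muscle markers also varied between libraries and summed to 24.8, 123 and 384 FPKM in knockouts and 80.9, 19.4 and 55.2 FPKM in controls. All 11 tested muscle markers had a log2 fold change above 0, with a median of 1.09, and 0 had an unadjusted p under 0.05 in limma; their part in the results was not tested.

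Some of these genes carry a known stress element in their promoters. The ER stress response element, ERSE, is the site through which ATF6 and XBP1 act together with the CCAAT-binding factor NF-Y, and it reads CCAAT, then 9 bases of any kind, then CCACG. It was searched on both strands in RefSeq promoter windows (GRCm38.p6, 250 bases before to 50 after a start). A window was found for 29 of the 33 genes. Of these 29 genes, 9 held an ERSE, namely 7 chaperones and folding enzymes and 2 genes of ERAD, and 20 held none. Over all 32851 promoter windows the share was 0.119%. The 10 stretches are shown because they are the matches to the element through which ATF6 and XBP1 act. Each is written on the strand that reads CCAAT first, with the fixed letters in capitals.
Hspa5, chr2:34772025-34772043, plus strand: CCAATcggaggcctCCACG
Hsp90b1 (distal), chr10:86705638-86705656, minus strand: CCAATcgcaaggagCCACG
Hsp90b1 (proximal), chr10:86705533-86705551, plus strand: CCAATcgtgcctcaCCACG
Calr, chr8:84847075-84847093, plus strand: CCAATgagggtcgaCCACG
Canx, chr11:50325800-50325818, minus strand: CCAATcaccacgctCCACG
Pdia6, chr12:17266491-17266509, plus strand: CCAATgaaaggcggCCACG
Dnajc3, chr14:118937827-118937845, plus strand: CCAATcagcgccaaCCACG
Creld2, chr15:88819520-88819538, minus strand: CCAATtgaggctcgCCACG
Syvn1, chr19:6046532-6046550, plus strand: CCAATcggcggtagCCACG
Derl3, chr10:75893242-75893260, minus strand: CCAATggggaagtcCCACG

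A shorter variant, ERSE-II (ATTGG, 1 base of any kind, CCACG), was found in Herpud1 and Dnajb11 and in 0.0365% of all windows. The C/EBP-ATF response element, CARE, through which ATF4 acts with C/EBP factors, was searched as TTGCATCA on both strands and was found in Chac1 and Herpud1 and in 0.895% of all windows. The 250 bases before the start are printed for Hspa5, Herpud1 and Chac1, with the fixed letters of these motifs in capitals, because they show the ERSE alone, ERSE-II beside CARE, and CARE alone. All 3 lie on the plus strand. A match describes letters only and was not tested as a binding site. Only exact matches within the windows were sought, so a gene without a match may carry a variant or a site elsewhere.
Hspa5, chr2:34771840-34772089: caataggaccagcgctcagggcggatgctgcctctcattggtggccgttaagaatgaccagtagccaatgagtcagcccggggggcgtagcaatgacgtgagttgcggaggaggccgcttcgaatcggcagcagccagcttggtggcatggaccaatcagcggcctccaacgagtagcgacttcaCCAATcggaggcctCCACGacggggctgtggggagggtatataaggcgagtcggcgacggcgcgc
Herpud1, chr8:94386179-94386428: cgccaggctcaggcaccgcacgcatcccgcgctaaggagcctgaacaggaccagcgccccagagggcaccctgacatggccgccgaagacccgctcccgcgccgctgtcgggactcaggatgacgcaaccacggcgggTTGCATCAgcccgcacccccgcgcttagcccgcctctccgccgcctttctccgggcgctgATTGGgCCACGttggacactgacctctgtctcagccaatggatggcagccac
Chac1, chr2:119350992-119351241: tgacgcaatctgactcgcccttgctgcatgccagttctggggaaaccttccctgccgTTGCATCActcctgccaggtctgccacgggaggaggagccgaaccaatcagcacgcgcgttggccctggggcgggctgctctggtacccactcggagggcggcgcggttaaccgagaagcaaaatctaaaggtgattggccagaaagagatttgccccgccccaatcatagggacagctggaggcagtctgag

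The single comparison asks whether these transcripts differ in cold-exposed fat when adipocytes lack Foxp4. No gene of the set passed the test, and the set did not move as a block. The largest fitted differences were lower Xbp1 and Pdia4 and higher Ddit3 in knockouts, each by about 0.54 to 0.55 on the log2 scale. The 15 chaperones and folding enzymes had a median log2 fold change of -0.14 and the 7 tested genes of translocation and ERAD one of -0.04, beside a median of -0.08 over all genes tested. The 6 genes of the Atf4-Ddit3 response had a median of 0.24, with 4 above 0 and 2 below.

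The test was limma on log2(FPKM + 1), with p-values adjusted by the Benjamini-Hochberg method over all 10787 genes that reached a mean of 1 FPKM in either group, and a threshold of 0.05. Of the 33 genes, 32 passed that filter and Derl3 did not. At an adjusted p of 0.05, 0 of the 32 were called in limma, beside 1 gene, or 0.00927%, of all genes tested. After median-of-ratios or upper-quartile scaling 0 of the 32 were called as well, beside 0.00928% of all genes under either scaling, and with voom on recovered reads 0 were called. At an unadjusted p of 0.05 in limma, 3 of 32 were higher in knockouts (9.38%), beside 6.98% of all genes tested, and 6 were lower (18.8%), beside 17.1%. In unscaled FPKM, groups did not overlap in 3 genes higher and 7 lower in knockouts, beside 8.48% and 22.7% of all genes tested. These shares lie near those of the whole table, so they are no result about the set. With an unadjusted limma p under 0.05 as the rule, 7 genes lay higher and 3 lay lower after median-of-ratios scaling of the libraries. The shares of all genes tested were 13.0% and 9.29%, so the balance of higher and lower genes moves with the scaling. By function, the same rule gave higher and lower counts of 1 and 3 of 15 chaperones and folding enzymes (3 and 3 after median-of-ratios scaling), 0 and 1 of 7 genes of translocation and ERAD (0 and 0), 0 and 2 of 4 sensors and Xbp1 (0 and 0), and 2 and 0 of 6 Atf4-Ddit3 genes (4 and 0). Without control replicate 1 the counts of the set were 1 higher and 4 lower. Without knockout replicate 2 they were 1 and 2, and without knockout replicate 3 they were 1 and 5. The shares of all genes in these fits were not computed, so these counts are no result about the set.

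**Figure D1:**
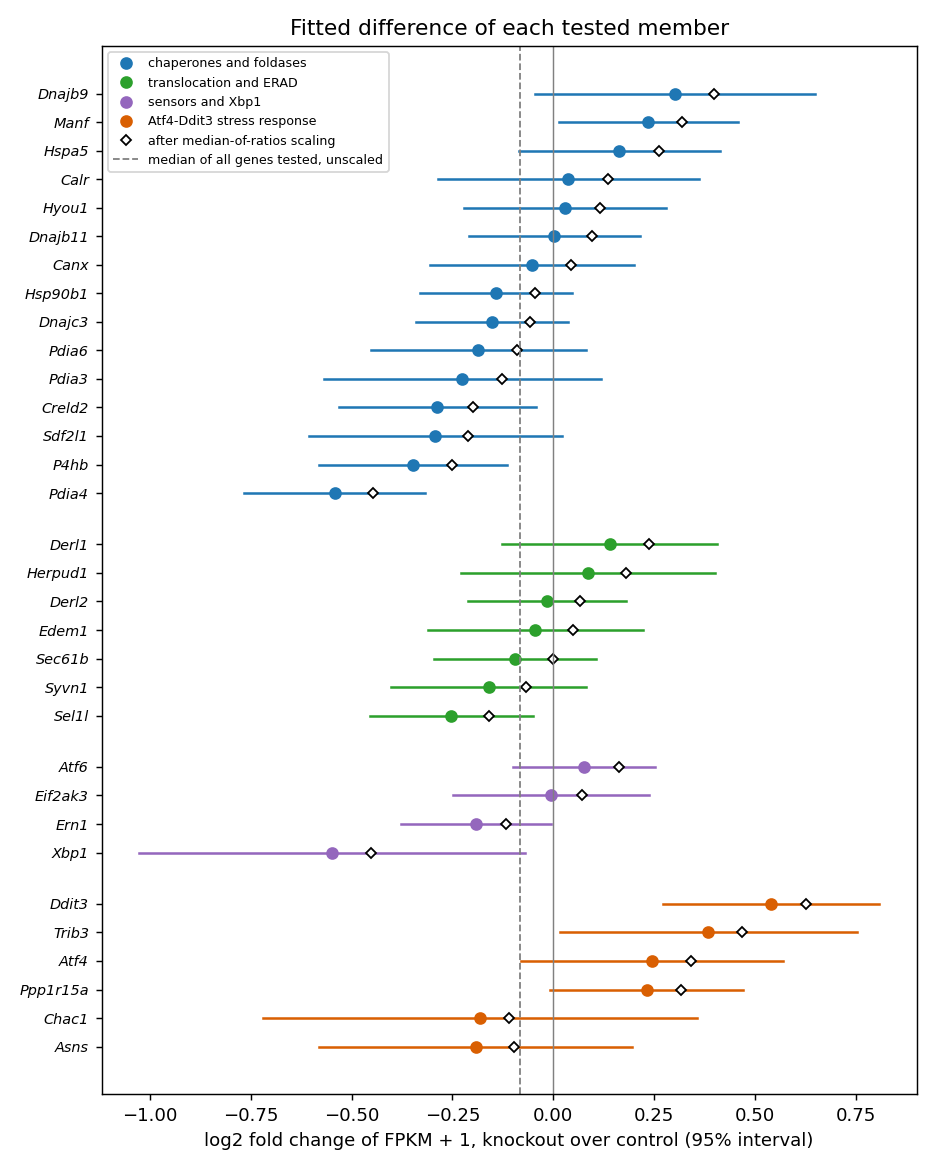
Fitted log2 fold change of FPKM + 1, knockout over control, for the 32 tested genes (filled points with 95% intervals from limma), ordered within 4 functional groups, with the value after median-of-ratios scaling as open diamonds. Pdia4 and Xbp1 lie farthest left and Ddit3 farthest right, and the dashed line marks the median of all genes tested, -0.08.

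The general chaperones had group means close together. Hspa5 encodes BiP, the ER Hsp70 that also holds the sensors inactive. It stood at 85.3, 81.8 and 76.5 FPKM in knockouts and at 75.5, 63.0 and 79.4 FPKM in controls. Knockout replicate 3 lay below the highest control, so the groups overlapped in unscaled FPKM. The log2 fold change of Hspa5 was 0.16 (95% interval -0.09 to 0.41, adjusted p = 0.37 in limma). After median-of-ratios scaling it was 0.26 (unadjusted p = 0.021, adjusted p = 0.15 in limma). Hsp90b1, the ER Hsp90 known as GRP94, stood at 30.8, 29.8 and 30.2 FPKM in knockouts and at 31.3, 33 and 36.4 FPKM in controls. All 3 knockouts lay below the lowest control, by a small margin, and the log2 fold change was -0.14 (adjusted p = 0.32 in limma). After median-of-ratios scaling the log2 fold change of Hsp90b1 was -0.045 (unadjusted p = 0.56 in limma). The lectin chaperones of glycoprotein folding, calreticulin (Calr) and calnexin (Canx), had means of 93.7 ± 5.07 and 43.1 ± 3.82 FPKM in knockouts and of 92.3 ± 17.8 and 44.8 ± 4.90 FPKM in controls (SD, n = 3). Hyou1, an exchange factor of BiP, averaged 6.62 ± 0.62 FPKM in knockouts and 6.48 ± 0.83 FPKM in controls (SD, n = 3).

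The J-domain partners of BiP did not share a direction. Dnajb9, or ERdj4, which keeps IRE1 inactive through BiP, averaged 29.7 ± 3.73 FPKM in knockouts and 24.0 ± 4.45 FPKM in controls, with overlap (log2 fold change 0.30, adjusted p = 0.26 in limma). Dnajb11, or ERdj3, was level at 14.2 ± 0.50 FPKM in knockouts and 14.2 ± 1.41 FPKM in controls, with a 95% interval of the log2 fold change of -0.21 to 0.21. Dnajc3, or p58IPK, averaged 20.0 ± 0.75 FPKM in knockouts and 22.3 ± 1.57 FPKM in controls (SD, n = 3). Sdf2l1, which forms a complex with ERdj3, averaged 3.97 ± 0.76 FPKM in knockouts and 5.07 ± 0.63 FPKM in controls, from 55 to 81 reads per knockout library and 68 to 99 per control library. The transcript of Dnajb9 matched that of Gm6568 over 697 bases at 93.3% identity, so its level is uncertain, as are those of Calr and Hsp90b1, which match Calr-ps and 1810014B01Rik over part of their length.

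Of the 4 disulfide isomerases, Pdia4 and P4hb did not overlap between groups and lay lower in knockouts, whereas Pdia3 and Pdia6 overlapped. Pdia4, or ERp72, stood at 23.1, 19.1 and 18.7 FPKM in knockouts and at 30.4, 28.9 and 30.3 FPKM in controls. The controls lay close together and every knockout was below them. The knockout mean was 0.679 times the control mean, and the log2 fold change came to -0.54 (standard error 0.10, 95% interval -0.77 to -0.32, adjusted p = 0.076 in limma), which missed the threshold. P4hb, the founding disulfide isomerase PDI, stood at 74.2, 66.2 and 67.6 FPKM in knockouts and at 86.5, 81.0 and 98.6 FPKM in controls, again without overlap. Its fitted log2 difference was -0.35 (standard error 0.10, adjusted p = 0.12 in limma). Pdia3, the isomerase that works with calnexin and calreticulin, averaged 59.0 ± 6.67 FPKM in knockouts and 69.5 ± 12.6 FPKM in controls, and Pdia6 averaged 32.6 ± 3.56 FPKM in knockouts and 37.2 ± 3.89 FPKM in controls (SD, n = 3). The 95% intervals of both log2 fold changes included 0. Pdia4 and P4hb kept an unadjusted p under 0.05 in each of the 6 fits that left out 1 library and after median-of-ratios scaling, where their log2 fold changes were -0.45 and -0.25.

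Small secreted and luminal proteins of the stress response differed in direction. Manf, a protein that is induced by ER stress and partly secreted, stood at 5.16, 6.47 and 5.91 FPKM in knockouts and at 4.75, 4.56 and 5.09 FPKM in controls. Knockout replicate 1 lay just above the highest control, and the log2 fold change came to 0.24 (standard error 0.09, adjusted p = 0.19 in limma). Exons of Manf overlap exons of Dcaf1 on the opposite strand by up to 146 bases, and the sources used here do not give the strand setting of the counting. Creld2, another stress-induced luminal protein, stood at 8.96, 7.83 and 7.74 FPKM in knockouts and at 9.93, 9.17 and 11.6 FPKM in controls, without overlap (log2 fold change -0.29, SE 0.10, adjusted p = 0.16 in limma). Creld2 carries an ERSE and Manf had no promoter window to search.

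**Figure D2:**
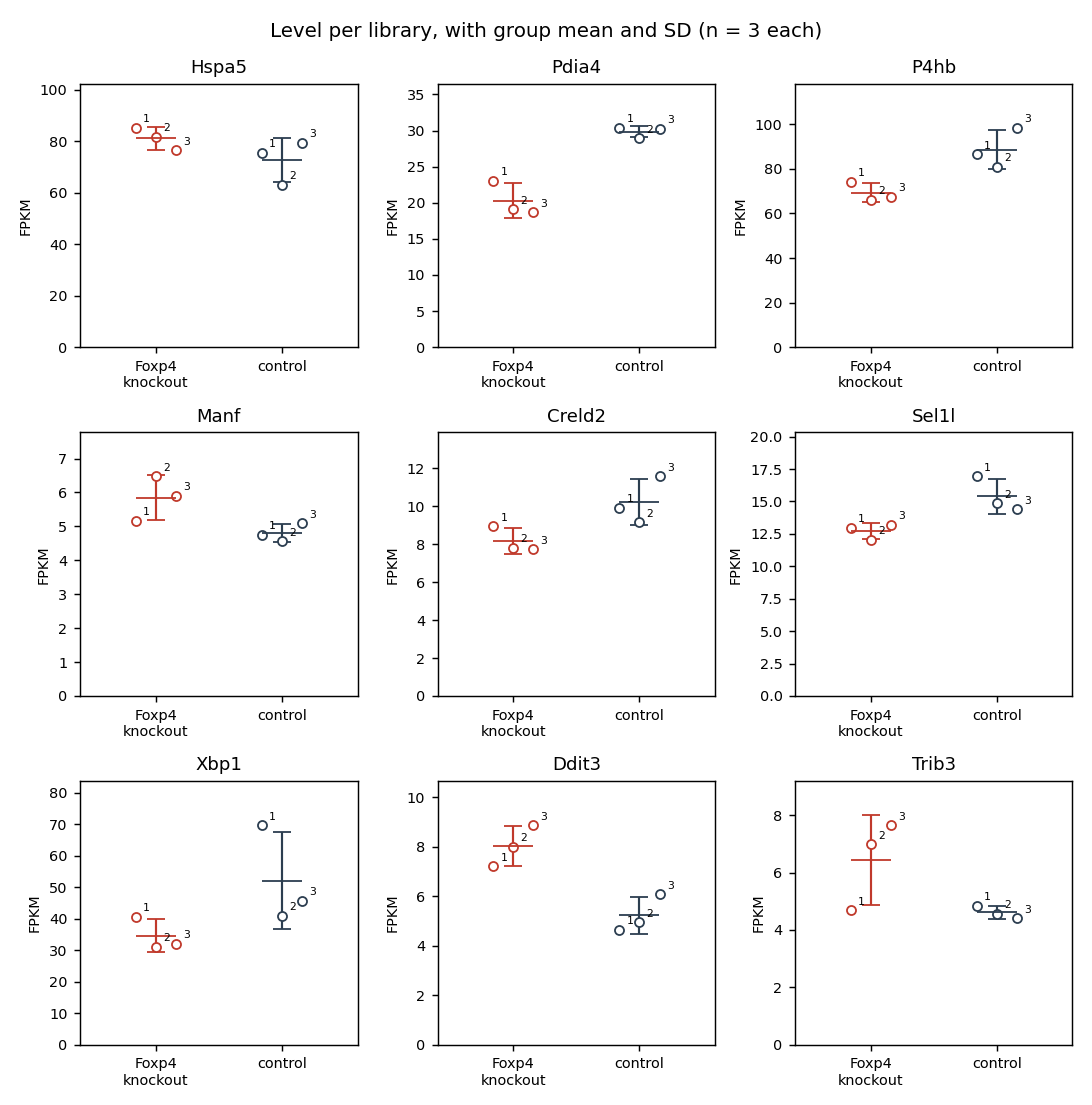
FPKM of 9 genes in each library (open points, numbered by replicate), with group mean and SD as bar and whiskers, n = 3 each, knockout on the left. Pdia4, P4hb, Creld2, Sel1l and Xbp1 were lower and Manf and Ddit3 higher in all 3 knockouts, whereas Hspa5 and Trib3 overlapped between groups.

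Most genes of translocation and ERAD had group means close together. Sel1l, the adaptor of the HRD1 ubiquitin ligase complex, stood at 13.0, 12.1 and 13.2 FPKM in knockouts and at 16.9, 14.9 and 14.4 FPKM in controls. The groups did not overlap in unscaled FPKM, and the log2 fold change came to -0.25 (standard error 0.09, adjusted p = 0.15 in limma). After median-of-ratios scaling the log2 fold change of Sel1l was -0.16 (unadjusted p = 0.14 in limma). Its partner Syvn1, the HRD1 ligase itself, averaged 11 ± 1.02 FPKM in knockouts and 12.4 ± 1.23 FPKM in controls (SD, n = 3). Herpud1, which organises that complex and whose promoter holds both ERSE-II and CARE, averaged 24.5 ± 3.25 FPKM in knockouts and 23.0 ± 3.32 FPKM in controls, with a 95% interval of the log2 fold change of -0.23 to 0.40. Edem1, a lectin that hands misfolded glycoproteins to ERAD, averaged 17.2 ± 1.99 FPKM in knockouts and 17.8 ± 1.83 FPKM in controls. The translocon subunit Sec61b averaged 21.4 ± 0.87 FPKM in knockouts and 23.0 ± 2.01 FPKM in controls, and its short transcript matches 3 other annotated transcripts at 95.7% identity or more, so its level is uncertain.

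The derlins, channel-like proteins of ERAD, differed in level far more than between genotypes. Derl1 was the most abundant of the set per exon length, at 113 ± 7.04 FPKM in knockouts and 103 ± 13.0 FPKM in controls (SD, n = 3), and a copy, Gm35638, matches it over 652 bases. Derl2 stood at 4.87 ± 0.34 FPKM in knockouts and 4.93 ± 0.31 FPKM in controls. Derl3, which is abundant in secretory cells such as plasma cells, stood at 0.136, 0 and 0.298 FPKM in knockouts and at 0.499, 0.240 and 0.0934 FPKM in controls, from 0 to 9 reads per knockout library and 3 to 14 per control library. At this depth no difference in Derl3 was detectable. Of the plasma cell markers, Jchain lay at 4.11 to 9.45 FPKM in knockouts and 2.10 to 13.0 FPKM in controls, while Mzb1 was listed at 0 in 5 of the 6 libraries.

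Among the sensors and their effector Xbp1, the groups in unscaled FPKM did not overlap in Xbp1 and Ern1 and overlapped in Atf6 and Eif2ak3. Xbp1 stood at 40.6, 31.1 and 32.2 FPKM in knockouts and at 69.7, 41.0 and 45.7 FPKM in controls. Control replicate 1 was far above the others, and knockout replicate 1 nearly reached the lowest control. The knockout mean was 0.664 times the control mean, with a log2 fold change of -0.55 (SE 0.20, 95% interval -1.03 to -0.07, adjusted p = 0.17 in limma) and of -0.32 without control replicate 1. After median-of-ratios scaling the log2 fold change of Xbp1 was -0.45 (unadjusted p = 0.057 in limma). Its unadjusted p in limma was under 0.05 in 3 of the 6 fits that left out 1 library. Ern1, the sensor that splices Xbp1 mRNA, stood at 2.63, 2.58 and 2.90 FPKM in knockouts and at 3.28, 3.27 and 3.13 FPKM in controls. These unscaled values did not overlap (log2 fold change -0.19, SE 0.08, adjusted p = 0.20 in limma). After median-of-ratios scaling the log2 fold change of Ern1 was -0.12 (unadjusted p = 0.22 in limma). Atf6 averaged 7.39 ± 0.11 FPKM in knockouts and 6.97 ± 0.44 FPKM in controls, and Eif2ak3 averaged 3.38 ± 0.18 FPKM in knockouts and 3.41 ± 0.51 FPKM in controls (SD, n = 3). Macrophages also express Xbp1, and their 11 markers were all lower in knockouts at an unadjusted p of 0.05, beside 17.1% of all genes tested. The markers summed to 384 to 495 FPKM in knockouts and 601 to 809 FPKM in controls. The part of macrophages in the Xbp1 values was not tested.

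In the Atf4-Ddit3 response, Ddit3 had the clearest difference. Ddit3, which encodes CHOP, a transcription factor of prolonged ER stress, stood at 7.22, 8.0 and 8.87 FPKM in knockouts and at 4.64, 4.95 and 6.08 FPKM in controls. Every knockout was above every control, from 182 to 230 reads per knockout library and 112 to 168 per control library. The knockout mean was 1.54 times the control mean, and the log2 fold change came to 0.54 (standard error 0.11, 95% interval 0.27 to 0.81, adjusted p = 0.082 in limma), which missed the threshold, also after median-of-ratios scaling (0.63, adjusted p = 0.056). Exons of Ddit3 overlap those of Mars on the opposite strand by up to 68 bases. Ddit3 is listed under 2 gene identifiers, and the other row was at 0 in all libraries.

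The genes around Ddit3 were less even. Atf4 stood at 52.7, 50.3 and 43.9 FPKM in knockouts and at 39.4, 35.3 and 49.8 FPKM in controls. Control replicate 3 lay above knockout replicate 3 in unscaled FPKM, and the log2 fold change was 0.24 (95% interval -0.08 to 0.57, adjusted p = 0.32 in limma). After median-of-ratios scaling that of Atf4 was 0.34 (unadjusted p = 0.017, adjusted p = 0.14 in limma). Unscaled, it was 0.38 without control replicate 3 and 0.14 without control replicate 2. Trib3, a pseudokinase induced by ATF4 and CHOP, stood at 4.68, 6.98 and 7.65 FPKM in knockouts and at 4.84, 4.57 and 4.41 FPKM in controls. Knockout replicate 1 was at the level of the controls, so the groups overlapped, and the log2 fold change came to 0.38 (standard error 0.16, adjusted p = 0.19 in limma). Ppp1r15a, or GADD34, which restores translation by dephosphorylating eIF2 alpha, stood at 5.85, 6.77 and 6.28 FPKM in knockouts and at 4.50, 5.64 and 5.56 FPKM in controls, without overlap (log2 fold change 0.23, SE 0.10, adjusted p = 0.22 in limma).

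For Chac1 and Asns the fit of all libraries gave no direction beyond the spread. Chac1, a glutathione-degrading enzyme and a target of ATF4, stood at 1.61, 2.90 and 3.03 FPKM in knockouts and at 4.16, 2.17 and 2.65 FPKM in controls. Its values were spread across both groups, with 39 to 75 reads per knockout library and 52 to 96 per control library, and the log2 fold change of -0.18 had a 95% interval of -0.72 to 0.36 and was 0.02 without knockout replicate 1 or without control replicate 1. Asns, the asparagine synthetase, averaged 31.2 ± 1.78 FPKM in knockouts and 36.4 ± 8.44 FPKM in controls (SD, n = 3), with overlap. Its log2 fold change of -0.19 (95% interval -0.58 to 0.20) was -0.05 without control replicate 1. Without control replicate 3 it was -0.38 (adjusted p = 0.12 in limma), so the value of Asns depends on which control is left out.

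Many genes were highest in control replicate 3. In unscaled FPKM, 11 of the 15 chaperones and folding enzymes (73.3%) were highest in it, beside 34.5% of all genes tested. After median-of-ratios scaling the count was 6 of 15, beside 19.0% of all genes tested, and neither difference in share was tested. The FPKM of the 15 genes summed to 538, 526 and 489 in knockouts and to 528, 517 and 622 in controls. Without control replicate 3 the median log2 fold change of the 15 was -0.08, beside -0.05 over all genes tested in that fit. The coefficient of variation of unscaled FPKM had a median of 8.60% in knockouts and 11.3% in controls. It was larger among controls in 24 of the 32 tested genes, beside 63.9% of all genes tested, and in 18 of 32 after median-of-ratios scaling, beside 64.3%, so this count is no result about the set. The part of other cell types in these differences was not tested.

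**Figure D3:**
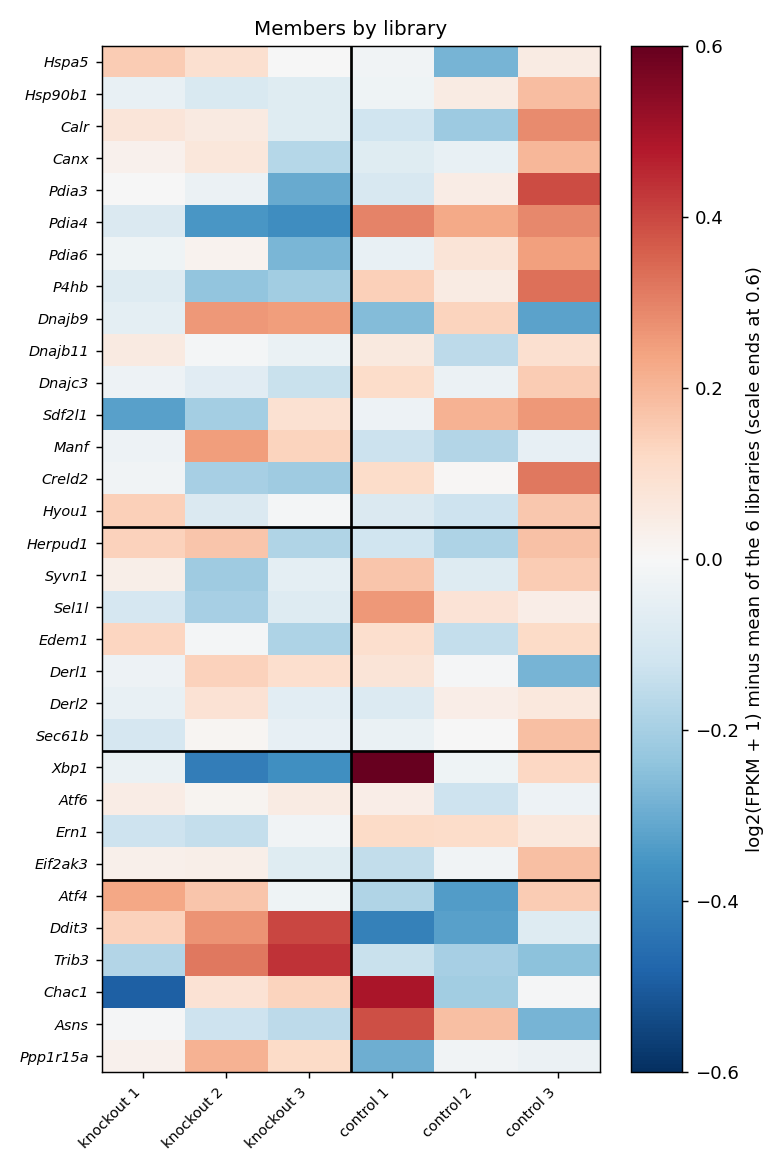
log2(FPKM + 1) of the 32 tested genes in the 6 libraries, each minus the mean of the gene over all libraries (red above, blue below, colour scale from -0.6 to 0.6), with knockouts on the left and lines between the 4 functional groups. In these unscaled values 11 of the 15 chaperones are highest in control replicate 3, Pdia4 separates the genotypes, and Xbp1, Chac1 and Asns are highest in control replicate 1.

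Ratios of 2 genes within a library do not depend on how libraries are scaled. The 5 pairs given here were chosen after values were seen and are descriptions. Ddit3 and the denominators Pdia4, P4hb, Xbp1 and Hsp90b1 already did not overlap on their own in unscaled FPKM. Hspa5 was 3.70, 4.29 and 4.08 times Pdia4 in knockouts and 2.48, 2.18 and 2.62 times Pdia4 in controls. The 2 groups lay apart in this ratio, as they already did in Pdia4 alone, whereas Hspa5 alone overlapped in unscaled FPKM. The ratio of Ddit3 to Atf4, in contrast, overlapped, at 0.137, 0.159 and 0.202 in knockouts and 0.118, 0.140 and 0.122 in controls. Ddit3 was 0.178, 0.257 and 0.276 times Xbp1 in knockouts and 0.0666, 0.121 and 0.133 times Xbp1 in controls, and Hspa5 was 2.77, 2.75 and 2.53 times Hsp90b1 in knockouts and 2.41, 1.91 and 2.18 times Hsp90b1 in controls, both without overlap. Hspa5 was 1.15, 1.24 and 1.13 times P4hb in knockouts and 0.872, 0.778 and 0.805 times P4hb in controls, also apart. P4hb lay below Hspa5 in every knockout and above it in every control. Between the functional groups, the mean log2(FPKM + 1) of the 15 chaperones was subtracted from that of the 6 Atf4-Ddit3 genes. This gave -1.23, -1.01 and -0.95 in knockouts and -1.21, -1.33 and -1.45 in controls, where knockout replicate 1 lay just below control replicate 1. Because of the added 1, this difference, unlike a ratio, depends in part on the scaling.

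**Figure D4:**
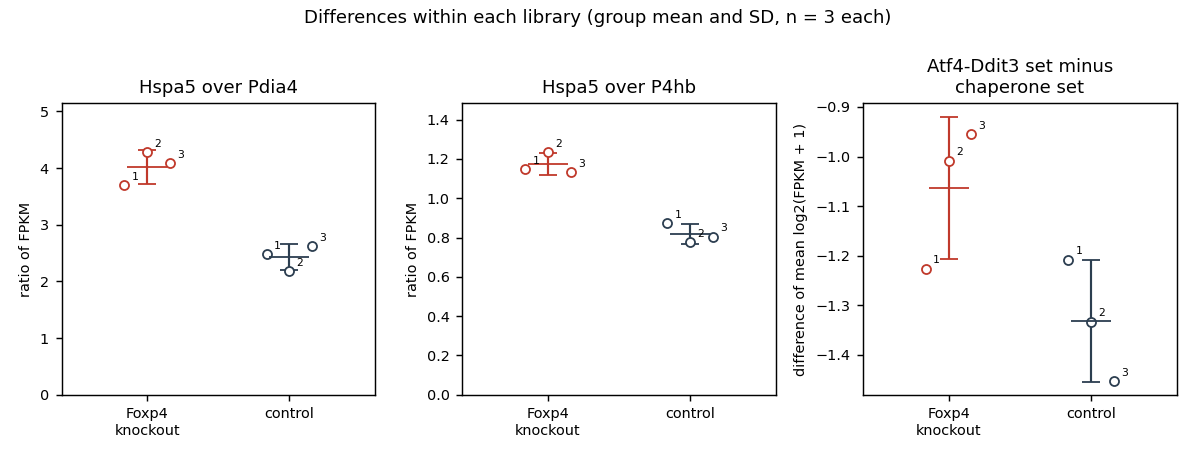
FPKM ratios of Hspa5 to Pdia4 and to P4hb within each library, and the difference in mean log2(FPKM + 1) between the 6 Atf4-Ddit3 genes and the 15 chaperones (open points numbered by replicate, bar and whiskers for group mean and SD, n = 3 each, knockout on the left). Both ratios were higher in all 3 knockouts, and the difference between gene groups overlapped at replicate 1.

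The 8 tested genes with an ERSE, the ATF6 and XBP1 element printed above, had log2 fold changes between -0.29 (Creld2) and 0.16 (Hspa5). Of these 8 genes, 2 were above 0 and 6 below, with a median of -0.15, and only Creld2 had an unadjusted p under 0.05 in limma. The 20 tested genes whose promoter window held no exact ERSE match, Pdia4, P4hb, Xbp1 and Ddit3 among them, ranged from -0.55 to 0.54. Their median was -0.07. The difference between these 2 lists was not tested.

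Other genes of the same pathway were taken from 5 lists of known function, and 0 of their genes passed the adjusted threshold in limma. The 33 other folding enzymes tested held 1 higher and 5 lower genes at an unadjusted p of 0.05 (3 and 1 after median-of-ratios scaling). Over all genes tested, the shares were 6.98% and 17.1% (13.0% and 9.29% after that scaling). The counts of the lists below stand beside the same shares. The median log2 fold change of these 33 enzymes was -0.15. Fkbp9, a luminal prolyl isomerase, stood at 51.9, 46.7 and 46.0 FPKM in knockouts and at 70.5, 66.9 and 67.5 FPKM in controls, without overlap (log2 fold change -0.50, adjusted p = 0.070 in limma). The thiol oxidase Ero1l, which recharges disulfide isomerases, averaged 6.97 ± 0.69 FPKM in knockouts and 5.78 ± 0.14 FPKM in controls, whereas its relative Ero1lb averaged 1.58 ± 0.10 FPKM in knockouts and 2.06 ± 0.18 FPKM in controls (SD, n = 3). The disulfide reductase Dnajc10 averaged 9.01 ± 0.12 FPKM in knockouts and 10.7 ± 0.86 FPKM in controls.

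The 24 other genes of translocation and glycosylation held 0 higher and 3 lower genes by the same rule (0 and 0 after median-of-ratios scaling), with a median of -0.05. These were the translocation factors Sec63 (9.03 FPKM in knockouts and 10.4 FPKM in controls) and Tram1 (13.5 FPKM in knockouts and 17.1 FPKM in controls) and the signal peptidase subunit Spcs3 (7.29 FPKM in knockouts and 8.80 FPKM in controls). Ddost, a subunit of oligosaccharyltransferase, averaged 34.1 FPKM in knockouts and 39.97 FPKM in controls. The 26 other ERAD genes held 1 higher and 3 lower (with median-of-ratios scaling, 1 and 1), with a median of -0.05. Os9, the lectin that delivers glycoproteins to the HRD1 complex, stood at 37.8, 35.7 and 38.0 FPKM in knockouts and at 53.5, 47.2 and 45.2 FPKM in controls, without overlap (log2 fold change -0.38, adjusted p = 0.089 in limma). Edem2 averaged 6.94 FPKM in knockouts and 8.85 FPKM in controls, Herpud2 averaged 7.69 FPKM in knockouts and 9.01 FPKM in controls, and the ubiquitin ligase gene Rnf185 averaged 14.0 FPKM in knockouts and 12.0 FPKM in controls.

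The 25 other ATF4 target genes tested held 7 higher and 4 lower by that rule, beside 6.98% and 17.1% of all genes tested. With median-of-ratios scaling they held 12 and 2, beside 13.0% and 9.29%. The difference of these shares from the table was not tested. The list had a median log2 fold change of 0.14 and a range of -0.56 to 1.26, with 17 genes above 0 and 8 below. The 4 genes named next have the smallest unadjusted p in limma, and all of them were higher in knockouts. Mthfd2, a mitochondrial enzyme of folate metabolism, stood at 3.39, 4.25 and 3.22 FPKM in knockouts and at 1.89, 1.90 and 1.81 FPKM in controls, without overlap (log2 fold change 0.68, adjusted p = 0.070 in limma). Atf5, a transcription factor related to Atf4, averaged 78.4 ± 2.13 FPKM in knockouts and 57.7 ± 5.80 FPKM in controls (adjusted p = 0.082 in limma). Cebpb, a partner of ATF4 on CARE sites, averaged 26.9 ± 6.70 FPKM in knockouts and 12.6 ± 3.61 FPKM in controls (adjusted p = 0.084 in limma). The hormone gene Fgf21 averaged 5.52 ± 2.30 FPKM in knockouts and 1.70 ± 0.76 FPKM in controls (SD, n = 3; adjusted p = 0.088 in limma). Cebpb and Fgf21 also belong to the thermogenic programme of fat, whose 10 markers summed to 3543 to 5211 FPKM in knockouts and 1647 to 3423 FPKM in controls, and the part of that programme in these values was not tested.

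The 18 other regulators held 0 higher genes and 1 lower (with median-of-ratios scaling, 2 and 0), with a median of -0.07. The gene was Mbtps1, the Golgi protease that cleaves ATF6, which averaged 9.92 ± 0.76 FPKM in knockouts and 11.8 ± 0.24 FPKM in controls. Eif2ak2, another eIF2 alpha kinase, averaged 5.36 FPKM in knockouts and 6.33 FPKM in controls. Creb3l2, a relative of Atf6, averaged 4.23 FPKM in knockouts and 5.28 FPKM in controls, and Rtcb, the ligase that completes Xbp1 splicing, averaged 26.8 FPKM in knockouts and 29.4 FPKM in controls.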

How the data were processed

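Polyadenylated RNA from 6 libraries was prepared with a stranded kit and sequenced on an Illumina HiSeq, per the labels' protocols. Per the submitters' processing notes, cutadapt, HISAT2 and HTSeq were used with the build mm10; versions, annotation and strand setting are not stated there. The deposited values are FPKM per gene, in 21936 rows; 36 rows that repeat a symbol gave way to the higher row. FPKM times merged exon length (GENCODE M21, same build) times 1 factor per library came within 0.05 of a whole number for 97.9 to 98.1% of the values worth 50 reads or fewer, which gave the recovered reads. Rarely used exons lower the FPKM of a gene.

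Because the values are FPKM and not counts, genes were tested with the trend method of limma 3.58.1 (R 4.3.3) on values of log2(FPKM + 1), in a model of genotype alone over all 6 libraries. Benjamini-Hochberg adjustment ran over the 10787 genes whose mean reached 1 FPKM in knockouts or in controls. This scale understates the change of genes with low values. An exact test of 3 against 3 libraries cannot give a two-sided p below 0.1. The fit was tested on simulated data.

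The genes and lists were chosen with earlier results of these data known. Of the 33 genes, values in every library are given for those with an unadjusted p under 0.05, those whose groups do not overlap, those below the filter, and for Hspa5, Xbp1, Atf4 and Ddit3. From each pathway list up to 4 genes with the smallest unadjusted p are named. Marker lists gave these counts higher and lower in knockouts at an unadjusted p of 0.05: adipocyte 0 and 4 of 10, thermogenic 5 and 0 of 10, plasma cell 0 and 1 of 3, lymphocyte 0 and 0 of 1, macrophage 0 and 11 of 11, fibroblast 0 and 5 of 12, skeletal muscle 0 and 0 of 11, epithelium 0 and 0 of 1, endothelium 0 and 1 of 10, immediate early 0 and 2 of 13. Of all genes tested, 6.98% were higher and 17.1% lower by this rule. Promoters are RefSeq sequences of GRCm38.p6. Transcript copies were sought with BLAST at 90% identity over at least 200 bases. Alternatives were a pseudocount of 0.1, no filter, a filter at 5 FPKM, median-of-ratios and upper-quartile scaling, a replicate block, fits without 1 library each, and, added after seeing the data, voom on recovered reads and the scaled counts of genes highest in 1 library or more variable in 1 group.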

Additional observations from a re-analysis of the deposited data

How the results depend on the processing

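Under all 13 alternatives 0 genes of the set passed an adjusted p of 0.05, and the smallest adjusted p was 0.056 (Ddit3, median-of-ratios scaling). The number of genes called over the whole table was 2 with a filter at 5 FPKM, 0 without a filter, 0 with the replicate block, 0 with voom on recovered reads, and 0 to 5 when 1 library was left out. At an unadjusted p of 0.05 in limma, 3 genes of the set were higher and 6 lower, beside 6.98% and 17.1% of all genes tested. After median-of-ratios scaling the counts were 7 and 3, beside 13.0% and 9.29%. After upper-quartile scaling they were 6 and 4, beside 12.0% and 10.5%. With voom they were 1 and 5, and when 1 library was left out they were 1 to 4 and 2 to 6. Shares of all genes were not computed for voom or the fits without 1 library, so those counts are no result about the set. Median-of-ratios scaling moved the median log2 fold change of the chaperones to -0.045, of translocation and ERAD to 0.049 and of the Atf4-Ddit3 genes to 0.33, and upper-quartile scaling moved that of translocation and ERAD to 0.035. When 1 library was left out, these medians ranged from -0.15 to -0.08, from -0.12 to 0.013 and from 0.18 to 0.31. The median of all genes tested was -0.08 unscaled, -0.001 after median-of-ratios scaling, and -0.11 to -0.05 when 1 library was left out.

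Of 412 values of single genes under the alternatives, 384 kept their sign. After median-of-ratios scaling the log2 fold changes with the other sign were Canx 0.043, Edem1 0.049, Derl2 0.067, Sec61b 0.0004 and Eif2ak3 0.071, and after upper-quartile scaling Canx 0.028, Edem1 0.035, Derl2 0.054 and Eif2ak3 0.059. In fits without 1 library the ranges that crossed 0 were Calr -0.062 to 0.19, Canx -0.1045 to 0.0325, Chac1 -0.33 to 0.018, Derl2 -0.062 to 0.013, Dnajb11 -0.0765 to 0.051, Edem1 -0.13 to 0.038, Eif2ak3 -0.081 to 0.082 and Hyou1 -0.034 to 0.12. Scaling shifts every gene by its construction; the cause of the other moves was not tested. Deviations of same-numbered libraries correlated at 0.065, 0.027 and -0.254 across genes, and those of different-numbered libraries at -0.231 to 0.182. These correlations cannot decide whether replicate numbers pair the libraries, and the labels give no pairing. The replicate block left the counts of the set at 3 higher and 6 lower. Depth limits Derl3, Sdf2l1 and Chac1, which rest on fewer than 100 reads per library.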

Other observations

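Genes of collagen folding, which stand in the lists of other folding enzymes and regulators, were chosen here after their values were seen. Serpinh1, the collagen chaperone HSP47, stood at 223, 206 and 158 FPKM in knockouts and at 109, 116 and 208 FPKM in controls. Its high control was replicate 3, where Col1a1 stood at 199 FPKM against 54.1 and 57.8 FPKM in the other controls. In knockouts Col1a1 stood at 80.9, 67.7 and 51.2 FPKM, so that Serpinh1 was 2.76, 3.05 and 3.09 times Col1a1 in knockouts and 2.01, 2.00 and 1.04 times Col1a1 in controls. Fkbp10, a prolyl isomerase of procollagen, was also highest in control replicate 3, at 7.61 FPKM, against 4.12, 4.16 and 2.68 FPKM in knockouts and 2.64 and 3.80 FPKM in the other controls. Creb3l1, a sensor-like factor of collagen-secreting cells, stood at 4.70, 4.31 and 3.60 FPKM in knockouts and at 3.38, 3.05 and 6.77 FPKM in controls.

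Gdf15, a stress hormone and ATF4 target, is also named after its values were seen. It lay below the filter by the mean of either group and was not tested. Gdf15 stood at 0.548, 1.34 and 0.928 FPKM in knockouts and at 0.115, 0.111 and 0.502 FPKM in controls. Knockout replicate 1 lay only just above control replicate 3. Values this low rest on few reads, so the lack of overlap is no result.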
